A study of Drosophila melanogaster with 4 samples.

Results

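The CP190 peak list was described by the position and width of its peaks along the chromosomes of Drosophila melanogaster S2 cells. It held all 2067 peaks that the authors called for the CP190 antibody against Input, out of 3472 peaks in the whole series. S2 is an established aneuploid cell line derived from fly embryos and resembling blood cells, in which the copy number of X is lower than that of the autosomes. The untreated cells gave 4 chromatin or genomic DNA libraries, 1 each for the antibodies against CP190, CG8436 (Ibf1) and CG9740 (Ibf2), and 1 Input library without immunoprecipitation. The peak files gave a chromosome, a start and an end only, so the number of reads in each library and under each peak was unknown. With 1 CP190 library and no replicate, no difference was tested. Intervals in parentheses are 95% intervals that cover counting error over peaks only (exact binomial for shares, order-statistic for medians), and peaks of a library are not replicates of a condition.

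CP190 is a protein with a BTB domain and zinc fingers that occurs at insulators, DNA elements that can block an enhancer from acting on a promoter or separate neighbouring chromatin domains. It is brought to DNA largely by sequence-specific insulator proteins, among them Su(Hw), CTCF and BEAF-32, and in fly cells it is known from domain borders and from active promoters. Here it was mapped with an antibody against CP190 itself. In the fly, 2L, 3L and X are numbered from the telomere towards the centromere, and 2R, 3R and the small chromosome 4 from the centromere towards the telomere.

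The 5 large arms held 1998 of the CP190 peaks (96.7%), at 17.1 peaks per Mb. An arm was measured from the first to the last position called there in any of the 3 lists, which gave 116.6 Mb in all. Arm 3R carried 495 peaks over 27.8 Mb, the most by number. Arm 2R carried 396 peaks over 20.9 Mb, the most by density, at 18.9 per Mb. Density was 17.8 per Mb on 3R, 17.5 on 3L (413 peaks), 16.3 on 2L (362 peaks) and 15.0 on X (332 peaks). The highest of these densities was 1.26 times the lowest. The peaks covered 548.3 kb, or 0.470% of the measured length, with a lowest share of 0.423% on 2L and a highest of 0.520% on 2R. For comparison, on the same arms the Ibf1 list held 561 peaks (4.81 per Mb) and the Ibf2 list 725 (6.22 per Mb).

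Most CP190 sites stood alone. Between neighbouring peaks on the large arms, from the end of one to the start of the next, the median gap was 36.2 kb (34.0 to 38.2, 1993 gaps), and the middle 50% of gaps ran from 13.9 to 75.2 kb. The median was 33.6 kb (29.9 to 40.2) on 3L, 35.1 kb (31.2 to 39.7) on 2R, 35.7 kb on both 2L (29.7 to 42.9) and 3R (31.4 to 40.1), and 42.6 kb (35.6 to 49.6) on X. These intervals overlapped between every pair of arms. Gaps of 1 kb or less numbered 44 (2.21%, 1.61 to 2.95), or 1.35% when distances were taken between midpoints, and gaps of 5 kb or less 193 (9.68%, 8.42 to 11.1). The shortest gap was 300 bp, and no peaks touched or overlapped. This minimum was not particular to CP190, since on the same arms it was 307 bp in the Ibf1 list and 325 bp in the Ibf2 list. Gaps over 100 kb numbered 344 (17.3%, 15.6 to 19.0), and together they made up 52.1% of the measured length.

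The arms differed more in their long gaps than in their median. Gaps over 100 kb were 10.9% (7.99 to 14.4) of all gaps on 2R, 17.0% (13.5 to 21.0) on 3L, 18.6% on 2L (14.7 to 23.0) and 3R (15.3 to 22.3), and 21.8% (17.4 to 26.6) on X. The interval of 2R lay below those of 2L, 3R and X and overlapped that of 3L. Long gaps took up 41.6% of the length of 2R and 58.7% of that of X. The standard deviation of the gaps was 1.07 times their mean on 3R, 1.18 times on 2L, 1.24 times on both 3L and X, and 1.35 times on 2R. Arm 2R thus combined the lowest share of long gaps with the highest relative spread, and 2 of the 4 longest gaps on the large arms lay next to each other at its centromere side.

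**Figure D1:**
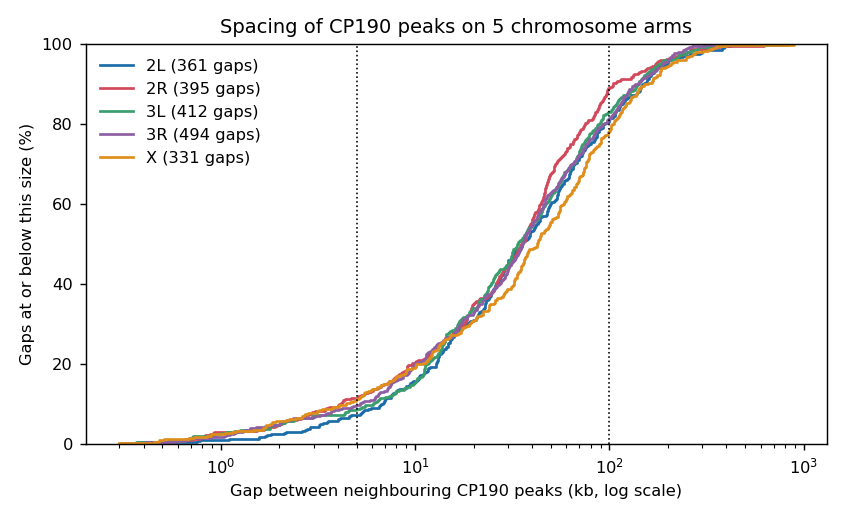
Cumulative share of gaps between neighbouring CP190 peaks (percent, vertical axis) by gap size (kb, log scale, horizontal axis), with 1 line per large arm and dotted lines at 5 and 100 kb. The lines run close together up to the medians of 33.6 to 42.6 kb, and at 100 kb the line of 2R is highest and that of X lowest.

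The length of a gap said little about the next one. Spearman's rho between consecutive gaps was 0.03 over 1988 pairs, and between -0.08 on 3L and 0.09 on X for single arms, given as a description since consecutive pairs share a gap. After a gap of 13.9 kb or less the next gap had a median of 36.5 kb (32.6 to 40.7, n = 499). After a gap of 75.2 kb or more it had a median of 40.0 kb (33.4 to 44.5, n = 496). The widths of neighbouring peaks were related as weakly, with rho = 0.05 over 1993 pairs of neighbours, from 0.01 on 2R and 3R to 0.11 on X.

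Short runs of CP190 peaks were few and small. Peaks joined by gaps of 5 kb or less formed 172 runs that held 365 peaks (18.3%, 16.6 to 20.03), and 1633 peaks had no neighbour at that distance. Of the runs, 154 were pairs, 15 held 3 peaks and 3 held 4 peaks, and none was larger. The share of peaks in runs was 22.0% (18.0 to 26.4) on 2R, 21.1% (16.8 to 25.9) on X, 18.4% (15.1 to 22.1) on 3R, 16.2% (12.8 to 20.1) on 3L and 13.8% (10.4 to 17.8) on 2L. Of these intervals, that of 2R lay above that of 2L, and the other pairs overlapped. Peaks enter a run only together, so these intervals are too narrow. As shares of gaps of 5 kb or less, the values were 7.20% (4.76 to 10.4) on 2L and 11.6% (8.65 to 15.2) on 2R. Those intervals overlapped. The size of the share depends on the distance chosen, since it was 9.16% with gaps of 2 kb or less and 33.0% with gaps of 10 kb or less.

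The 3 runs of 4 peaks lay on 3R, X and 2R. The tightest spanned 7598 bp on 3R at positions 4126957 to 4134554 (dm3, as deposited). Its peaks were 325, 343, 57 and 261 bp wide, with gaps of 3678, 836 and 2098 bp between them. On X, at 13223604 to 13232393, peaks of 273, 308, 318 and 174 bp were separated by 4974, 2443 and 300 bp, the last being the shortest gap on the large arms. On 2R, at 9844404 to 9855872, a peak of 622 bp was followed by peaks of 254, 300 and 250 bp at gaps of 2935, 2841 and 4267 bp. None of the 3 was evenly spaced by a limit of 1.2 for the ratio of the largest to the smallest midpoint spacing. The ratio was 1.46 in the most even of them and 9.64 in the least even.

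Among the runs of 3 peaks, the tightest was at the very tip of 2L. It spanned 18507 to 21414 and opened the arm, with a peak of 273 bp followed by peaks of 66 and 54 bp. On 3R, at 26308601 to 26311993, a peak of 293 bp and a slightly narrower one were 315 bp apart, and a peak of 196 bp lay 2307 bp further on. On 3L, 2 such runs were found, with other peaks between them. The first, at 20176065 to 20179666, had peaks of 119, 420 and 264 bp. The second, at 20470496 to 20474603, had a wider peak followed by peaks of 49 and 91 bp. The remaining named runs of 3 lay on 3R at 20410801 to 20414827, on 2R at 3025614 to 3029745 and on 3L at 7804759 to 7809157, and their peaks were 167 to 338 bp wide. Genes at these positions are not named, since no annotation of dm3 was used.

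Counted in fixed windows of 100 kb, most windows held 1 to 3 CP190 peaks, and between 18.7% and 26.8% of the windows of an arm held none. The 1164 windows held a mean of 1.71 peaks. No peak fell in 264 windows (22.7%, 20.3 to 25.2), 322 windows held 1, 274 held 2, 170 held 3 and 86 held 4. Windows with 5 or more peaks numbered 48. Empty windows were 18.7% (14.3 to 23.8) of those on 3R, 21.5% (16.2 to 27.7) on 2R, 21.6% (16.5 to 27.4) on 3L, 25.8% (20.2 to 32.1) on 2L and 26.8% (21.1 to 33.2) on X. These intervals overlapped throughout.

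The excess spread of the counts was larger in larger windows over the 5 arms together, though not on every arm. The variance of the counts divided by their mean, which is 1 where sites fall independently at a constant rate, was 1.12 in windows of 50 kb, 1.23 at 100 kb, 1.40 at 200 kb, 1.64 at 500 kb and 1.81 at 1000 kb over the 5 arms together. At 1000 kb it was 2.33 on 2R (20 windows), 2.30 on X (22), 1.73 on 2L (22), 1.55 on 3R (27) and 1.19 on 3L (23). With so few windows per arm these ratios are imprecise, and a difference between arms was not tested. Along 2L the ratio had no steady trend, with 1.17, 1.36, 1.21, 1.13 and 1.73 in the same order of sizes, and on 3L it was 1.48 at 500 kb. On X the 1000 kb windows held between 7 and 26 peaks, and on 2R between 2 and 30. Neighbouring 100 kb windows were weakly alike (rho = 0.16 over 1159 pairs). In order of coordinate, the window following one with 4 or more peaks held a mean of 2.04 peaks. The window following an empty one held 1.45, where the mean over all windows was 1.71.

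**Figure D2:**
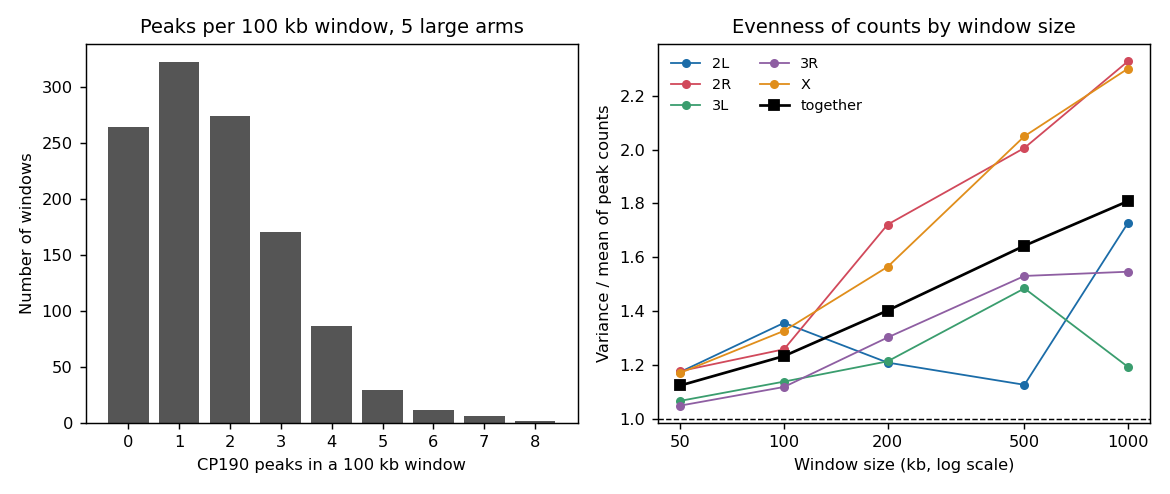
Left, number of 100 kb windows (vertical axis) by the CP190 peaks they hold (horizontal axis), where 264 of 1164 windows are empty and 2 hold 8 peaks. Right, variance of the counts divided by their mean (no unit) by window size (kb, log scale), with a coloured line per arm, black squares for the 5 arms together and a dashed line at 1; the black squares climb from 1.12 to 1.81.

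The windows with the most CP190 peaks were scattered over 4 of the 5 arms. A window on 2R at 12407306 to 12507305 and a window on X at 13139792 to 13239791 held 8 peaks each, and the window on X contains the run of 4 described above. Windows of 7 peaks lay on 2L at 818507 to 918506 and at 6318507 to 6418506, on 2R at 18907306 to 19007305 and at 20107306 to 20207305, on 3R at 7012846 to 7112845 and on X at 1039792 to 1139791. The list of 10 was completed by 2 of the 11 windows with 6 peaks, on 2L at 18507 to 118506 and at 9518507 to 9618506. Equal counts were ordered by arm and position, so other windows of 6 peaks, among them 2 on 3L, are not listed. On 3L no window exceeded 6 peaks.

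The longest stretch without a CP190 peak was in the middle of X, where 888.0 kb between 11589235 and 12477187 held none. The next was at the centromere side of 3L, with 825.1 kb at 22975536 to 23800684. At the centromere side of 2R, gaps of 735.5 kb (207689 to 943172) and 621.2 kb (943205 to 1564446) were separated by a single peak of 32 bp. The centromere side of 2L had a gap of 421.9 kb at 21757629 to 22179545. Within the arms, 2L had gaps of 505.8 kb at 16862744 to 17368573, 395.3 kb at 12547306 to 12942599 and 388.7 kb at 15653184 to 16041851. A gap of 406.2 kb lay on 3R at 20613286 to 21019510, and a second on X, of 396.4 kb, at 10261981 to 10658362. In 8 of these 10 gaps neither Ibf protein had a peak, a share close to that over the 344 gaps above 100 kb (82.6%), while over all 1993 gaps, most of them far shorter, it was 91.8%. The gap on 2L at 12547306 held 1 Ibf2 peak, and that at 15653184 held 1 peak of each.

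CP190 peaks were denser in the stretch next to the telomere, with no steady change along the rest of the arm. Position was read from 0 at the centromere-side end of an arm's measured span to 1 at its telomere-side end, and each arm was divided into 5 equal parts. From the centromere side outwards, the parts held 373, 412, 343, 390 and 480 peaks over the 5 arms, or 18.7% (17.0 to 20.4), 20.6% (18.9 to 22.5), 17.2% (15.5 to 18.9), 19.5% (17.8 to 21.3) and 24.0% (22.2 to 26.0). The outermost part, at 20.6 peaks per Mb, was denser than the arm's own mean on 5 of 5 arms, and it was the densest part on 2L, 3L, 3R and X. On 2R (18.5% to 26.9%) and 3R (18.6% to 26.1%) the interval of its share included an equal share. These intervals treat peaks as independent. In windows of 1000 kb the variance of the counts was 1.73 times their mean on 2L, 1.19 times on 3L and 2.30 times on X. The intervals are therefore too narrow, and whether those on 2L, 3L and X would exclude an equal share was not settled. Split at the midpoint of each arm, the telomere side held 1040 of 1998 peaks (52.1%, 49.8 to 54.3), an interval that includes an equal share, and on 2R it held 194 of 396 (49.0%, 44.0 to 54.0). On 2R the densest part was the second from the centromere side, with 106 peaks and 25.3 per Mb. The middle part lay under the arm's mean on 4 of 5 arms and was lowest on X, at 10.6 per Mb.

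Finer division showed a high outer end and, on some arms, a low inner end. It recounts the same peaks in smaller parts and was chosen after seeing the data. Divided into 10, the outermost part held 267 peaks (13.4%, 11.9 to 14.9) at 22.9 per Mb, and the innermost 146 (7.31%, 6.20 to 8.54) at 12.5 per Mb. The outermost part was above the arm's mean on 5 of 5 arms, from 21.5 per Mb on 2R to 24.4 per Mb on 2L. On 2R (8.41% to 14.9%) and 3L (9.33% to 15.9%) the interval of its share included an equal share. These intervals also treat peaks as independent and are too narrow. The innermost part was below the arm's mean on 4 of 5 arms, with 4.78 per Mb on 2R, 9.73 on 3L, 11.3 on X and 17.6 on 3R. On 2L it reached 17.6 per Mb, above that arm's mean of 16.3. The second part from the centromere side was above the mean on 5 of 5 arms. The innermost part was the sparsest of the 10 on 2 arms, 2R and 3L. Low density was not limited to it, since parts 5 and 6 from the centromere side were each below the mean on 4 of 5 arms. On X, part 6 had 9.96 per Mb, fewer than the innermost part.

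**Figure D3:**
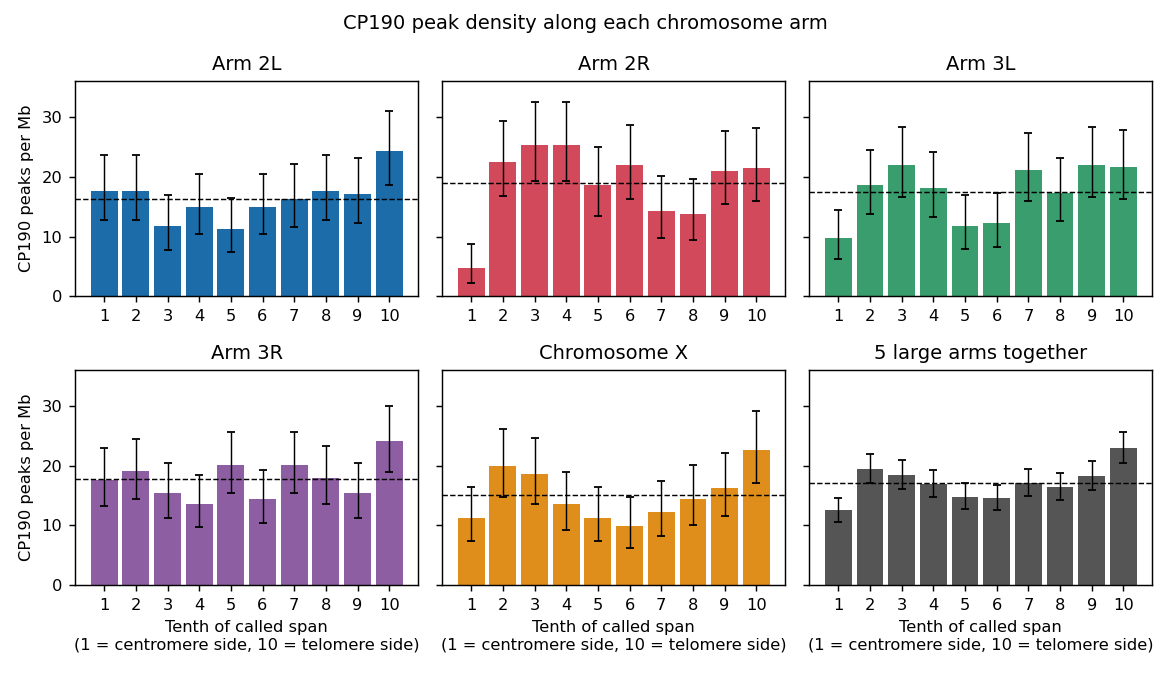
CP190 peaks per Mb (vertical axis) in 10 equal parts of the measured span (horizontal axis, 1 at the centromere side, 10 at the telomere side) for the 5 large arms and for all together; whiskers are 95% exact binomial intervals of the share of peaks and dashed lines the arm's mean. Bar 10 is above the dashed line in every panel, and bar 1 is far below it on 2R.

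The contrast between the ends of the arms was also counted over the last 1 Mb. This stretch lies within the innermost and outermost parts above and recounts some of their peaks, so it is no separate support. Its length was chosen after seeing the data. At the telomere side this stretch held 33 CP190 peaks on 2L, 31 on 2R, 24 on 3L, 23 on X and 20 on 3R. Each count was above the arm's mean per Mb, by least on 3R, where the mean was 17.8. At the centromere side the last 1 Mb held 12 peaks on 2L and 3R, 11 on X, 7 on 3L and 2 on 2R, below the mean in each case. Together the telomere sides held 131 peaks and the centromere sides 44, where the arms' mean densities correspond to 85.6. For Ibf1 the counts were 30 and 24 where the mean densities correspond to 24.0, and for Ibf2 43 and 31 where they correspond to 31.1. The 3 lists share sites, and the difference between them was not tested.

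Part of the low count at the centromere side rested on single peaks that stood far out. The outermost peak there was 421.9 kb from its neighbour on 2L (22179546 to 22180121, 576 bp wide), 735.5 kb on 2R (207306 to 207688, 383 bp), 825.1 kb on 3L (23800685 to 23801005, 321 bp), 171.9 kb on X (22226537 to 22226852, 316 bp) and 63.8 kb on 3R (12877 to 13345, 469 bp). At the telomere side the outermost peak was 0.784 kb from its neighbour on 2L (18507 to 18779, 273 bp), 1.78 kb on 3L (174078 to 174370, 293 bp), 45.6 kb on 3R (27817333 to 27817346, 14 bp), 62.2 kb on 2R (21140574 to 21140847, 274 bp) and 90.7 kb on X (139792 to 140057, 266 bp). With the outermost peak at each end left out and the span shortened to match, the last 1 Mb held 132 peaks at the telomere sides and 70 at the centromere sides. The telomere side then stayed above the mean on 5 of 5 arms, while the centromere side was below it on 4 of 5, since 2L had 25 peaks there.

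The median width of CP190 peaks hardly changed along the arms, while the widths of single peaks were widely spread. Over the whole list the median was 278 bp, with quartiles of 191.5 and 339 bp, and 90% of peaks lay between 44 and 514 bp. The most frequent widths were 251 to 350 bp, with 806 peaks (39.0%). The median width was 267 bp (252 to 281) on 2L, 269 bp (257 to 279) on 3L, 280 bp (269 to 291) on 2R and 289 bp (278 to 304) on X, and that of 3R lay between those of 2R and X. From the centromere side outwards, the 5 parts of the arms had medians of 281 bp (269 to 294), 283.5 bp (270 to 292), 272 bp, 278.5 bp (265 to 289) and 277.5 bp (266 to 287), and their intervals overlapped. Spearman's rho of width with position was -0.02 over 1998 peaks, and between -0.08 on 2R and 0.03 on 3L.

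Wide CP190 peaks were less evenly distributed in number, although few intervals separated. Peaks of 500 bp or more made up 106 of 1998 (5.31%, 4.36 to 6.38). They were 38 of 480 peaks (7.92%, 5.66 to 10.7) in the outermost of the 5 parts and 11 of 390 (2.82%, 1.42 to 4.99) in the part next to it. The other parts, from the centromere side, had 21 of 373 (5.63%, 3.52 to 8.48), 19 of 412 (4.61%, 2.80 to 7.11) and 17 of 343 (4.96%, 2.91 to 7.82). The interval of the outermost part lay above that of the part next to it and overlapped those of the other 3. By arm, the share in the outermost part was 7.61% on 2L, 6.80% on 3L, 10.0% on 3R and 9.30% on X, where the next highest parts had 6.90%, 5.97%, 6.25% and 8.45% in that order of arms. These shares rest on 7, 7, 11 and 8 wide peaks in the outermost part and 4, 4, 6 and 6 in the next highest. They are therefore imprecise, and the differences were not tested. On 2R the outermost part had 5.62% and the innermost 12.3%. The pattern also depended on the number of parts, since with 3 equal parts the outermost had 6.19% (4.55 to 8.20).

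The widest peak of the list, 1424 bp on 2R at 21076986 to 21078409, lay at relative position 0.997, next to the telomere-side end. The widest on 2L, 1137 bp at 73034 to 74170, was at position 0.998, and the widest on X, 1247 bp at 1180184 to 1181430, at 0.953. On 3R the widest, 1041 bp at 13442205 to 13443245, was at 0.483, and on 3L, 1100 bp at 16044054 to 16045153, at 0.328. Thus 3 of the 5 arms had their widest peak in the outermost part. The peaks on X and 3R had neighbours 1.47 and 1.06 kb away, whereas those on 2R, 3L and 2L were 6.08, 13.4 and 25.7 kb from the nearest other peak.

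**Figure D4:**
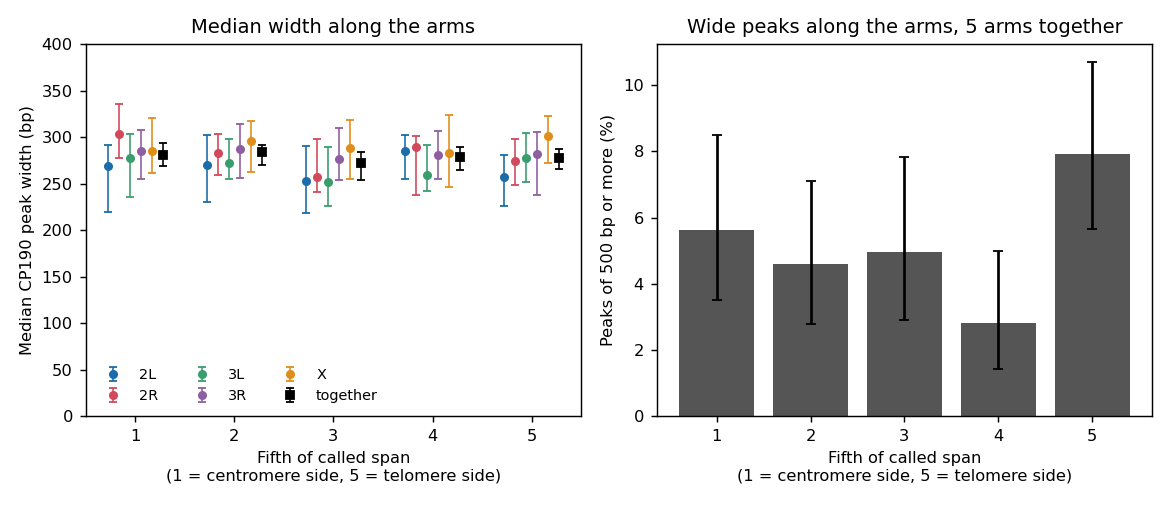
Left, median CP190 peak width (bp, vertical axis) in 5 equal parts of the measured span (horizontal axis, 1 at the centromere side, 5 at the telomere side), with coloured points for arms, black squares for the 5 arms together and whiskers for 95% order-statistic intervals; the black squares stay between 272 and 283.5 bp. Right, share of peaks of 500 bp or more (percent) in the same parts with 95% exact binomial intervals, highest in the outermost part at 7.92% and lowest in the part next to it at 2.82%.

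The width of CP190 peaks differed little between peaks with and without a close neighbour. The median was 272 bp (n = 365) for CP190 peaks with a neighbour at 5 kb or less and 279 bp (273 to 286, n = 1633) for the others, and the 2 intervals overlapped. By distance to the nearest neighbour, the medians were 262.5 bp (242 to 285, n = 88) at 1 kb or less, 273 bp up to 5 kb (n = 277) and up to 20 kb (n = 733), and 294 bp (274 to 306, n = 305) beyond 50 kb, with the class from 20 to 50 kb (interval 272 to 291, n = 595) in between. The medians tended to be higher at larger distance, but the intervals of all 5 classes overlapped, and rho between width and distance was 0.04 over 1998 peaks. Without peaks under 50 bp the medians were 278 bp with a neighbour at 5 kb or less and 288 bp without, and rho was 0.06 over 1874 peaks. By arm, the median with a close neighbour was lower on 2L (240.5 and 270 bp), 2R (263 and 287 bp), 3L (254 and 272.5 bp) and X (285 and 292 bp), and higher on 3R (287 and 278.5 bp).

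The peaks of a close pair were often unequal in width, as were neighbours further apart. Over the 44 pairs with a gap of 1 kb or less, the wider peak had a median of 309 bp (285 to 353) and the narrower one of 175.5 bp (129 to 228), a median ratio of 1.80 (1.59 to 2.59). Over the 149 pairs with a gap of more than 1 kb and up to 5 kb, the medians were 312 bp (300 to 318) and 225 bp (192 to 245), with a ratio of 1.48 (1.34 to 1.64). For the 758 neighbours more than 50 kb apart they were 329 bp (323 to 338) and 218 bp (206 to 229), with a ratio of 1.60 (1.53 to 1.68). The ratio intervals of the 3 classes overlapped. Whether a narrow peak within 1 kb is a site of its own or the edge of its neighbour cannot be told from positions.

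**Figure D5:**
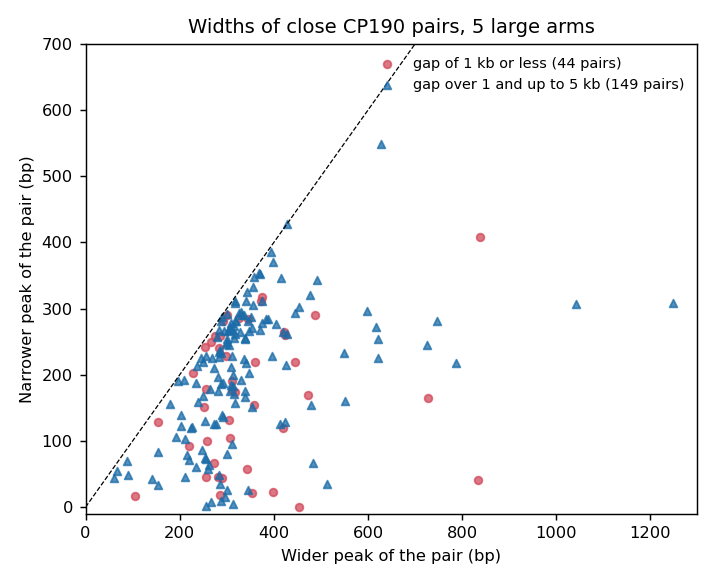
Width of the narrower CP190 peak (bp, vertical axis) against that of the wider one (bp, horizontal axis) for neighbouring peaks on the 5 large arms, with red circles for the 44 pairs with gaps of 1 kb or less and blue triangles for the 149 pairs with gaps of more than 1 and up to 5 kb; the dashed line marks equal widths. The median of the wider peak is 309 bp for the circles and 312 bp for the triangles, while the narrower peak ranges down to the bottom of the axis.

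Chromosome 4, the small and largely heterochromatic chromosome, held 13 CP190 peaks. Over its measured span of 1.17 Mb this was 11.2 peaks per Mb, where the lowest density of a large arm was 15.0 on X. A density from 13 peaks is imprecise, and the difference was not tested. The peaks were 146 to 802 bp wide with a median of 298 bp, and none was under 50 bp. The median of the 12 gaps was 64.6 kb, and 3 gaps were of 5 kb or less. The first peak, at 89241 to 89767, was followed by the longest gap on the chromosome, 337.7 kb. The closest pair was 334 bp apart, with peaks of 149 bp (855613 to 855761) and 639 bp (856096 to 856734). The widest peak, of 802 bp, was also the last of the list on this chromosome, at 1133440 to 1134241.

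The remaining 56 CP190 peaks lay in the Het scaffolds, which hold heterochromatin assigned to an arm, and in unplaced sequence (U and Uextra). The scaffold 2RHet held 4 peaks of 34 to 664 bp, 3RHet held 4 of 69 to 416 bp and 3LHet held 1 of 81 bp. Within 2RHet and 3RHet the smallest gap between peaks was 28.8 kb, on 3RHet, so no runs were formed. In unplaced sequence, U held 10 peaks and Uextra 37. Their positions reflect the order in which contigs were joined, so gaps between them were not read as spacing. Peaks under 100 bp made up 17 of these 47 (36.2%, 22.7 to 51.5), compared with 241 of 1998 (12.1%, 10.7 to 13.6) on the large arms, while the medians were 297 bp (96 to 317) and 278 bp.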

How the data were processed

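Peak positions of 1 CP190 library were described, with the Ibf1 and Ibf2 lists for side-by-side values. Chromatin from sonicated nuclei was immunoprecipitated and libraries were made from 10 ng DNA with 18 PCR cycles, per the labels' protocols. The submitters' processing notes name the build dm3 and CASAVA 1.8.2. The sources used here do not give the aligner, the peak caller or its settings. The deposited files hold chromosome, start and end in bp, with no score or count, so depth is unknown. The authors called peaks per library. Both ends were counted as part of a peak, because start and end coincide in 7 CP190 peaks. Positions are printed as deposited. All peaks were kept, including 128 under 50 bp.

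Gaps, runs, windows and positions were computed with Python 3.11.15, NumPy 2.4.6, pandas 2.3.3 and SciPy 1.17.1, and drawn with matplotlib 3.10.9. The steps were tested on simulated data with known answers. No dm3 chromosome length was used, so an arm runs from the first to the last position called in any list. No genome of this build was used here. The target genes Cp190, Ibf1 and Ibf2 were matched by locus tag in a RefSeq gene table. With 1 library per antibody no test was made.

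The regions named are the outermost peaks and the widest peak of each arm, the 10 longest gaps, the 10 largest runs and the 10 fullest windows. Members, lists and rules were chosen with earlier results of these data known. The division into 10 parts, the last 1 Mb, the split of peaks at 500 and 100 bp, the windows of 500 and 1000 kb, the classes of neighbour distance beyond 5 kb and the comparison of consecutive gaps were chosen after seeing the data, as was leaving out the outermost peaks. Alternatives covered narrow peaks, merging, the measured span, run distance, window size and leaving out each arm.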

Additional observations from a re-analysis of the deposited data

How the results depend on the processing

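Of 157 values recomputed under 21 alternative settings, 130 stayed within the interval of the reported value (or within 1.5 times, for counts) and 27 did not. The 130 include values that could hardly change, so their number does not measure robustness. CP190 peaks set nearly every arm end, so the span from first to last CP190 peak gave the reported values again. The rho of width with position does not use the number of parts. Likewise, the rho with nearest distance does not use the limit for a near neighbour. Spacing depended most on which peaks were kept. When narrower peaks than the median were dropped, the median gap was 73.4 kb, 4.60% of gaps were of 5 kb or less, 39.7% were over 100 kb, and 45 runs held 9.06% of peaks, as follows from removing about 50% of the sites. Gaps over 100 kb were 19.5% without peaks under 50 bp and 19.0% with all scaffolds included. The value with all scaffolds counts 9 gaps on U and 36 on Uextra, which do not measure spacing. Merging peaks within 1 kb left 7.64% of gaps at 5 kb or less and 14.5% of sites in runs. Runs numbered 90, with 9.16% of peaks, at a limit of 2 kb and 295, with 33.0%, at 10 kb. At a spacing ratio of 1.5, 1 run counted as evenly spaced. Empty windows were 44.9% at 50 kb and 5.16% at 200 kb, by construction. Without peaks under 50 bp, peaks with no close neighbour had a median width of 288 bp. Peaks with a close neighbour minus those without differed by 4 bp in median width at a limit of 2 kb and by -7 bp at 5 kb. Without the outermost peaks, an alternative chosen after seeing the data, the innermost of 10 parts held 8.55% of peaks. The innermost of 5 then held 20.7% (18.9 to 22.5), where the reported value was 18.7% (17.0 to 20.4). Both of these intervals included an equal share. Leaving out each arm in turn gave 13.0% to 13.9% of peaks in the outermost of 10 parts, 23.6% to 24.6% in the outermost of 5, and 6.45% to 8.49% in the innermost of 10. No paired analysis was possible because each antibody had 1 library, and no replicate could be left out. Read depth was unknown, so faint sites below the authors' threshold cannot be assessed.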
